A study of Mus musculus with 20 samples.

Results

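The genes described here are 30 genes of cholesterol synthesis and sterol regulation, out of 45306 genes in the expression table of a study of mouse liver. They were listed by role in the pathway and found by symbol, and the list was drawn up with earlier results of these data known. They comprised 7 enzymes of the mevalonate branch, 3 enzymes from squalene synthesis to lanosterol, 8 enzymes from lanosterol to cholesterol, 4 genes that control the transcription factor SREBP2, the sterol carrier Stard4, 6 genes of the liver X receptors (LXR) and their targets, and the esterifying enzyme Soat2. All 30 were present in the table and passed the filter on low counts.

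The study examined how loss of Sirt2, a NAD-dependent deacetylase, and intermittent cold affect liver metabolism. The livers of 20 C57BL/6 mice, 5 per group, each gave 1 mRNA library, and each mouse is named here by its replicate number, which runs from 1 to 20 over the groups. Control mice (1 to 5) were wild type and stayed at 24 °C, CE mice (6 to 10) were wild type and spent 3 h per day at 4 °C for 3 weeks, Sirt2-/- mice (11 to 15) carried the knockout and stayed at 24 °C, and Sirt2-/-/CE mice (16 to 20) carried the knockout and received the cold exposure. All were 5 weeks old when the exposure began. The knockout was made in fertilized eggs and was therefore present in all tissues. Whether it rests on 1 founder, which sex was used and at what time of day the livers were taken is not given in the sources used here.

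Cholesterol is built from acetyl-CoA through mevalonate, farnesyl diphosphate, squalene and lanosterol. When the sterol content of the endoplasmic reticulum is low, SCAP escorts SREBP2 to the Golgi, where it is cleaved and released to activate the genes of nearly every enzyme of the pathway. INSIG1 and INSIG2 hold the complex back when sterols are abundant, whereas oxysterols activate LXR, which raises genes for sterol export. In the liver the pathway is under strong control by feeding, dietary cholesterol and time of day.

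SREBP2 acts on promoters together with NF-Y, which binds CCAAT, and Sp1, which binds GGGCGG. In RefSeq promoter windows on GRCm38.p6, from 250 bases before to 50 bases after a start, 25 of the 30 genes had 33 windows, and windows for Fdps, Fdft1, Sqle, Stard4 and Soat2 are not shown. On either strand, CCAAT was found in 14 of the 18 windows of synthesis enzymes (77.8%) and in 37.4% of the 32851 windows of all genes. GGGCGG was found in 15 of the 18 (83.3%) and in 35.7% of all windows. The core TCACNCCAC of the sterol regulatory element was found in 1 of the 18 (5.56%), that of Hmgcs1, and in 1.24% of all windows. The 15 windows of the other genes held CCAAT in 6 cases (40.0%) and GGGCGG in 8 (53.3%). The windows of 4 enzymes are shown, since they belong to the genes on which the results turn (Sc5d, Tm7sf2 and Nsdhl) or hold the sterol element (Hmgcs1). Each reads 5′ to 3′ along the strand of the gene, and capitals mark CCAAT, also where the other strand holds it, and the sterol element, so that the window of Hmgcs1 (chr13:119690101-119690400, forward strand) holds 4 CCAAT boxes, that of Nsdhl (chrX:72918271-72918570, forward strand) 4, that of Sc5d (chr9:42264251-42264550, reverse strand) 1 and that of Tm7sf2 (chr19:6067801-6068100, reverse strand) 1.
Hmgcs1: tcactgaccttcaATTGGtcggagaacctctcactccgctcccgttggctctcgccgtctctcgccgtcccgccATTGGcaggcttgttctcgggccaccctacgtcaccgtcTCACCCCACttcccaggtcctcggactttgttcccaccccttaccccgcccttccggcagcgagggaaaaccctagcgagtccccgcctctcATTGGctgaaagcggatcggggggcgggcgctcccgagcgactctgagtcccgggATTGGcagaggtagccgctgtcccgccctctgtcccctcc
Nsdhl: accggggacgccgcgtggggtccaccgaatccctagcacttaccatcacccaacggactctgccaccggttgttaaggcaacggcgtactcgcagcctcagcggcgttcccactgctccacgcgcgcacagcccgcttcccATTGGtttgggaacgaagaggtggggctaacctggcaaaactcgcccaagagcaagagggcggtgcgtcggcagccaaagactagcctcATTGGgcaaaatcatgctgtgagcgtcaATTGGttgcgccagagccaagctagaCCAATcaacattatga
Sc5d: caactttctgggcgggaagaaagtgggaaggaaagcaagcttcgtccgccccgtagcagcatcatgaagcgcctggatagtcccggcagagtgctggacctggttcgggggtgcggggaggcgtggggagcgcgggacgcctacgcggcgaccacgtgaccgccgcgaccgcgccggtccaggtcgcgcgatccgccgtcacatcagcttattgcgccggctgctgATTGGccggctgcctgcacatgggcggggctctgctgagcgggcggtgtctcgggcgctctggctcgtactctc
Tm7sf2: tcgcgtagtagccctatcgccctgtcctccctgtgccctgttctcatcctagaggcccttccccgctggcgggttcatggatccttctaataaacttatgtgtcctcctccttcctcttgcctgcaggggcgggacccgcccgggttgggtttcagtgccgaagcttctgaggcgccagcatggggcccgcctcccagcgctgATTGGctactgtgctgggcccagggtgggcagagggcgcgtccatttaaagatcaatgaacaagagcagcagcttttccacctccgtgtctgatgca

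Levels are given as FPKM, the fragments of a gene which the authors scaled by gene length and library depth, in order of replicate number. Differences are log2 fold changes with their standard error (SE) from 1 fit of edgeR's quasi-likelihood test (two-sided) to the counts of all 20 libraries, and p-values were adjusted over the 15616 genes tested. The threshold for a call was an adjusted p under 0.05. Libraries held 35499796 to 53917339 counts, and no pair among 190 agreed as closely as repeat counts of 1 library would. Sirt2 itself had 21.3 ± 1.003 FPKM (SD, n = 5) in Control, 23.2 ± 1.76 in CE, 12.1 ± 2.54 in Sirt2-/- and 11.3 ± 1.17 in Sirt2-/-/CE, with an edgeR adjusted p of 0.0145 for Sirt2-/- against Control, and every knockout mouse was below every wild-type mouse, although transcript remained. The knockout was designed to remove several internal exons, per the methods of the study, and the count is over the whole gene, so it also covers exons outside the deletion. The markers of hepatocytes summed to 76130 to 167500 CPM (counts scaled to a common library size) over the mice, and those of liver endothelial cells to 28.4 to 222 CPM, lowest in the CE group (median 73.6 CPM against 129 in Control). A lower level in bulk tissue can come from fewer cells or from less RNA per cell, which cannot be told apart here. A clock score sets genes of the evening arm of the circadian clock (Nr1d2, Ciart, Per3, Tef and Dbp) against its morning arm (Clock, Npas2 and Arntl), as the difference of their means in centred log2 CPM. It was 1.33 to 3.36 in the Control mice. The score was below -4 in 4 mice, namely CE replicate 9 (-4.52), Sirt2-/- replicates 14 (-5.72) and 15 (-6.48) and Sirt2-/-/CE replicate 19 (-4.69), so results are also given without these mice, a choice made after seeing the data.

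The synthesis enzymes were lower in the livers of Sirt2-/- mice than in those of Control mice. All 18 had a negative log2 fold change, from -0.35 (Ebp) to -1.76 (Nsdhl), with a median of -1.0, against a median of 0.02 over all genes, of which 48.2% were lower. Sc5d and Tm7sf2, which act late in the pathway, and Soat2, which esterifies the product, passed the test. Thus 3 of the 30 genes were called, where 0.89% of all genes were. At an unadjusted p under 0.05, 19 of the 30 differed (14.9% of all genes), 18 of them lower (6.78% of all genes). Leaving out 1 mouse gave 11 to 21 of the 30, with 12 without Control replicate 5 (14.1% of all genes), 12 without Sirt2-/- replicate 14 (12.6%) and 11 without Sirt2-/- replicate 15 (10.3%), against 14.9% with all mice. Insig2 was the 1 gene that was higher. In CPM scaled by edgeR's TMM method, every Sirt2-/- mouse lay below every Control mouse for Acat2, Tm7sf2 and Sc5d, which are 3 of the 30 genes (2.16% of all genes), and in FPKM this held for 1, Sc5d (1.08% of all genes). With the clock score as a covariate edgeR called no gene of the 30 and none of all genes, Sirt2 included (0%), with 9 of the 30 at an unadjusted p under 0.05 (7.27% of all genes). Without the 4 mice named above it likewise called none of the 30 and none of all genes (0%), with 9 of the 30 at an unadjusted p under 0.05 (7.92% of all genes). Removing Sirt2-/- replicates 14 and 15 left fewer mice to test, and the clock score was mostly lower outside Control. Why the calls were lost was not tested. In both settings 18 of 18 enzymes were lower. Leaving out 1 mouse also left 0 of the 30 called for Sirt2-/- replicate 14 (0.0315% of all genes), Sirt2-/- replicate 15 (0.0631%), Control replicate 1 (0.0822%) or Control replicate 2 (0.0316%), so calls over all genes fell in these settings as well. DESeq2 called 8 of the 30 (3.89% of all genes) and limma voom 6 (5.8%).

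The low values lay in 3 of the 5 Sirt2-/- mice. The FPKM of the 18 enzymes summed to 957, 881, 587, 1017 and 1575 in the Control mice and to 823, 745, 454, 290.2 and 323 in the Sirt2-/- mice. The sums were 793, 781, 573, 1137 and 1288 in CE and 764, 985, 655, 783 and 907 in Sirt2-/-/CE. Sirt2-/- replicates 13, 14 and 15 were thus below all other 17 mice, while replicates 11 and 12 were within the Control range. Over all 20 mice, replicate 14 was the lowest for 12 of the 18 enzymes, replicate 15 for 4 and replicate 13 for 2. The highest mouse was Control replicate 5 for 10 of the 18. The median over the enzymes, in centred log2 CPM, was 0.34, 0.03, -0.96, -1.95 and -1.44 in Sirt2-/- mice against 0.40, 0.18, -0.56, 0.51 and 1.17 in Control mice. Replicate 13, whose clock score of 2.17 was within the Control range, had a lower enzyme median than any Control mouse.

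**Figure D1:**
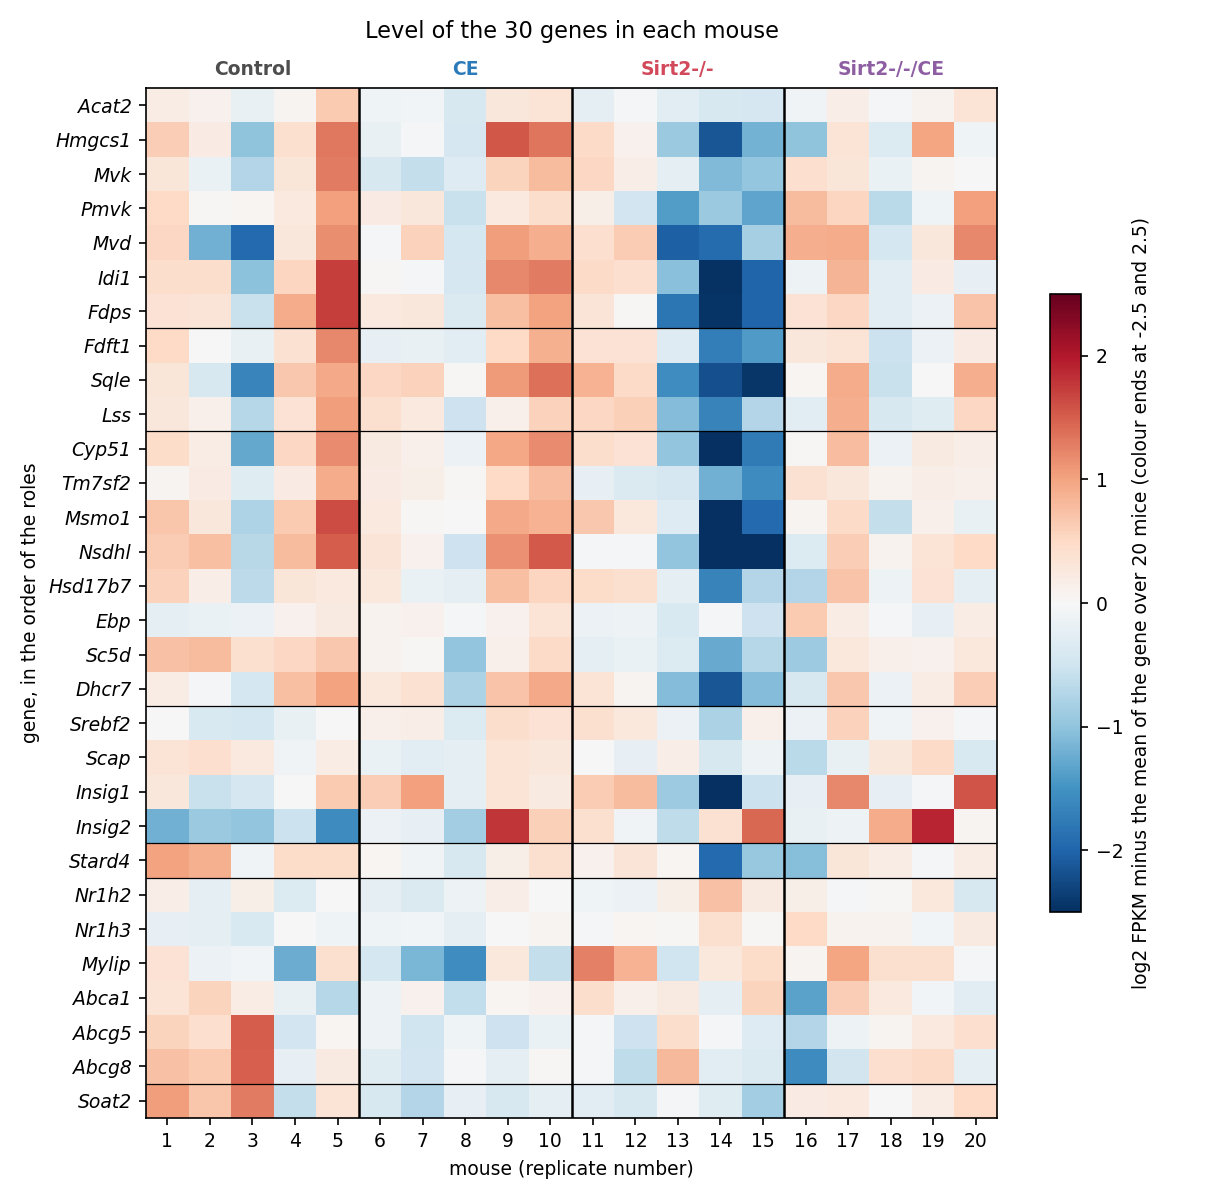
Level of the 30 genes in each of 20 mice, as log2 FPKM minus the mean of the gene, with mice by replicate number along the horizontal axis and genes by role along the vertical axis. The 18 enzymes at the top are low (blue) in Sirt2-/- replicates 13, 14 and 15, and Insig2 is high (red) in CE replicate 9, Sirt2-/- replicate 15 and Sirt2-/-/CE replicate 19.

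The mevalonate branch leads from acetyl-CoA to farnesyl diphosphate. Its 7 enzymes were all lower in Sirt2-/- than in Control, with an unadjusted p under 0.05 for 6 (14.9% of all genes), and none was called by edgeR (0.89% of all genes), whereas DESeq2 called 3, Acat2, Pmvk and Fdps (3.89% of all genes), and limma voom 1, Acat2 (5.8%). Acat2, the cytosolic thiolase that joins acetyl-CoA units, had 39.2, 36.7, 30.3, 36.1 and 53.5 FPKM in Control mice and 29.4, 33.4, 28.5, 26.04 and 25.6 FPKM in Sirt2-/- mice. In CE it had 31.7, 32.6, 25.9, 41.6 and 43.2 FPKM and in Sirt2-/-/CE 32.1, 38.4, 33.5, 36.2 and 43.6 FPKM. The Sirt2-/- mice were the lowest group and overlapped with the others on this scale. The log2 fold change between Sirt2-/- and Control was -0.60 (SE 0.15, edgeR adjusted p = 0.0584), and between Sirt2-/-/CE and Sirt2-/- it was 0.46 (SE 0.15, edgeR adjusted p = 0.559). Acat2 has a near-identical copy, Acat3, which held 64.1% to 81.6% of the counts of the pair in each mouse, so its level depends on how shared reads were counted.

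Pmvk, which adds the second phosphate to mevalonate, had 29.9, 21.6, 22.03, 25.1 and 43.1 FPKM in Control and 23.6, 15.2, 8.11, 11.2 and 8.55 FPKM in Sirt2-/-. The CE mice had 24.6, 25.9, 14.4, 25.3 and 28.7 FPKM and the Sirt2-/-/CE mice 36.8, 30.7, 13.3, 19.8 and 43.3 FPKM. Sirt2-/- replicates 13, 14 and 15 were the 3 lowest of all mice, replicate 12 was also below every Control mouse, and replicate 11 was inside the Control range. Its log2 fold change was -1.22 (SE 0.33, edgeR adjusted p = 0.0752) in Sirt2-/- against Control and 1.21 (SE 0.33, edgeR adjusted p = 0.503) in Sirt2-/-/CE against Sirt2-/-. Of the other enzymes of the branch, Fdps, which makes farnesyl diphosphate, stood at 166 ± 98.5 FPKM (SD, n = 5) in Control and 58.96 ± 49.2 FPKM in Sirt2-/-. Its log2 fold change of -1.63 was the most negative of the branch (SE 0.49, edgeR adjusted p = 0.105). The isomerase gene Idi1 stood at 59.1 ± 38.5 and 26.9 ± 21.9 FPKM, and Hmgcs1, which makes HMG-CoA, at 54.2 ± 27.9 and 28.4 ± 18.8 FPKM. Mvk, the mevalonate kinase, had 13.6 ± 7.48 and 9.23 ± 4.31 FPKM, and Mvd, the decarboxylase that follows Pmvk, 8.41 ± 6.02 and 5.97 ± 4.64 FPKM, the lowest level of the branch. In each of these 5 genes the Sirt2-/- and Control mice overlapped. Genes nearly identical to Fdps held 6.72% to 12.3% of the counts of that family, and Gm43738 shares 1124 of the 4208 exon bases of Fdps on the same strand. For Hmgcs1, an antisense gene shares 557 of 4594 exon bases, and the counting of strand is not given in the sources used here.

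Squalene synthesis and closure to lanosterol rest on 3 enzymes, each lower in Sirt2-/- than in Control, with log2 fold changes of -0.89 (Fdft1), -0.67 (Sqle) and -0.73 (Lss). None was called by edgeR, DESeq2 or limma voom, and Fdft1, the 1 of the 3 under 0.05 (14.9% of all genes), was at an unadjusted p of 0.0264 by edgeR. Fdft1, squalene synthase, had 43.3, 30.4, 27.2, 39.99 and 70.7 FPKM in Control and 39.5, 39.6, 24.7, 9.26 and 11.5 FPKM in Sirt2-/-. The values were 26.9, 27.3, 25.7, 43.8 and 56.9 FPKM in CE and 37.4, 38.9, 21.1, 27.97 and 35.7 FPKM in Sirt2-/-/CE. Sirt2-/- replicates 14 and 15 stood apart at 9.26 and 11.5 FPKM, while the next lowest of all mice, Sirt2-/-/CE replicate 18, had 21.1 FPKM. Fdft1 shares 774 of 4227 exon bases with Ctsb on the other strand. Lss, the cyclase that closes the sterol rings, had 10.4, 9.39, 5.25, 11.02 and 17.7 FPKM in Control and 12.3, 12.9, 4.08, 2.699 and 5.19 FPKM in Sirt2-/-. It had 11.4, 10.1, 5.97, 9.42 and 12.7 FPKM in CE and 7.09, 16.1, 6.51, 6.94 and 12.2 FPKM in Sirt2-/-/CE. For Lss the lowest Control mouse (replicate 3) was close to Sirt2-/- replicate 15, and Sirt2-/- replicates 11 and 12 were above the Control mean of 10.8 FPKM. Sqle, the epoxidase that opens the way to ring closure, ranged from 3.60 to 50.2 FPKM over the 20 mice, with 22.5 ± 12.4 FPKM in Control, 33.4 ± 11.9 in CE, 15.4 ± 14.8 in Sirt2-/- and 25.2 ± 10.8 in Sirt2-/-/CE.

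Among the 8 enzymes from lanosterol to cholesterol, all were lower in Sirt2-/- than in Control (48.2% of all genes), 6 at an unadjusted p under 0.05 (14.9%) and 2 after adjustment (0.89%). Sc5d, a desaturase that puts a double bond into the sterol ring, is encoded on chromosome 9 (42251595 to 42264256, reverse strand, GRCm38). Its levels were 209, 218, 168, 181 and 203 FPKM in Control, and 108, 112, 99.8, 52.6 and 77.03 FPKM in Sirt2-/-. They were 136, 130.1, 64.1, 139 and 177 FPKM in CE and 67.96, 152, 139, 136 and 153 FPKM in Sirt2-/-/CE. The highest Sirt2-/- mouse was below the lowest Control mouse, and 1 mouse of each cold-exposed group (replicates 8 and 16) was as low as the Sirt2-/- mice. For Sc5d the log2 fold change between Sirt2-/- and Control was -1.21 (SE 0.23, edgeR adjusted p = 0.0307, lower in 5 of 5 mice). Over 30 alternatives it ranged from -1.30 to -0.94, and Sc5d was called in 24 of them, with adjusted p-values from 0.000188 (DESeq2) to 0.321 (without the 4 mice of low clock score). In CE against Control it was -0.58 (SE 0.23, edgeR adjusted p = 0.357).

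Tm7sf2, a sterol reductase that acts after Cyp51, lies on chromosome 19 (6062821 to 6068373, reverse strand). It had 69.6, 76.5, 53.8, 76.9 and 127 FPKM in Control and 57.6, 51.8, 49.6, 29.2 and 22.5 FPKM in Sirt2-/-. The CE mice had 76.8, 73.9, 68.1, 93.7 and 114 FPKM and the Sirt2-/-/CE mice 87.5, 81.4, 71.1, 75.2 and 72.8 FPKM. All Sirt2-/- mice but replicate 11 were below the lowest Control mouse, and the Sirt2-/-/CE mice were all above them. Its log2 fold change was -1.06 against Control (SE 0.25, edgeR adjusted p = 0.0462), and Tm7sf2 was called in 9 of 30 alternatives, with adjusted p-values from 0.00351 (DESeq2) to 0.404 (without the 4 mice of low clock score). In Sirt2-/-/CE against Sirt2-/- it was 0.95 (SE 0.25, edgeR adjusted p = 0.503). Tm7sf2 shares 532 of its 4403 exon bases with Vps51 on the same strand.

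Nsdhl, part of the complex that removes methyl groups from the sterol nucleus, lies on the X chromosome (72918557 to 72958514) and is described mouse by mouse although it is outside the naming rule, a choice made after its values were seen. It had 29.2, 31.4, 11.6, 32.6 and 53.8 FPKM in Control and 18.3, 18.1, 9.52, 2.27 and 2.93 FPKM in Sirt2-/-. It had 23.3, 20.2, 13.03, 41.5 and 54.4 FPKM in CE and 14.8, 28.7, 19.9, 23.8 and 26.4 FPKM in Sirt2-/-/CE. Sirt2-/- replicates 13, 14 and 15 were the 3 lowest of all 20 mice, with replicates 14 and 15 far below the rest, while replicates 11 and 12 were above Control replicate 3. The log2 fold change of -1.76 in Sirt2-/- against Control was the most negative of the 30 genes (SE 0.51, edgeR adjusted p = 0.0936). The remaining 5 enzymes of this stretch are given by group mean. Cyp51, which starts the demethylation of lanosterol, had 37.1 ± 18.6 FPKM in Control and 20.2 ± 15.6 FPKM in Sirt2-/- (SD, n = 5). Msmo1, which works with Nsdhl in demethylation, had 77.9 ± 44.4 and 38.1 ± 29.9 FPKM, and Hsd17b7, the ketoreductase of the same complex, 13.8 ± 3.78 and 10.9 ± 5.599 FPKM. Ebp, the sterol isomerase, had 93.01 ± 12.9 and 81.2 ± 10.9 FPKM and showed the smallest difference of the 18 enzymes. Dhcr7, which makes cholesterol by reducing the last double bond of the ring, had 28.8 ± 11.5 and 15.3 ± 9.66 FPKM.

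**Figure D2:**
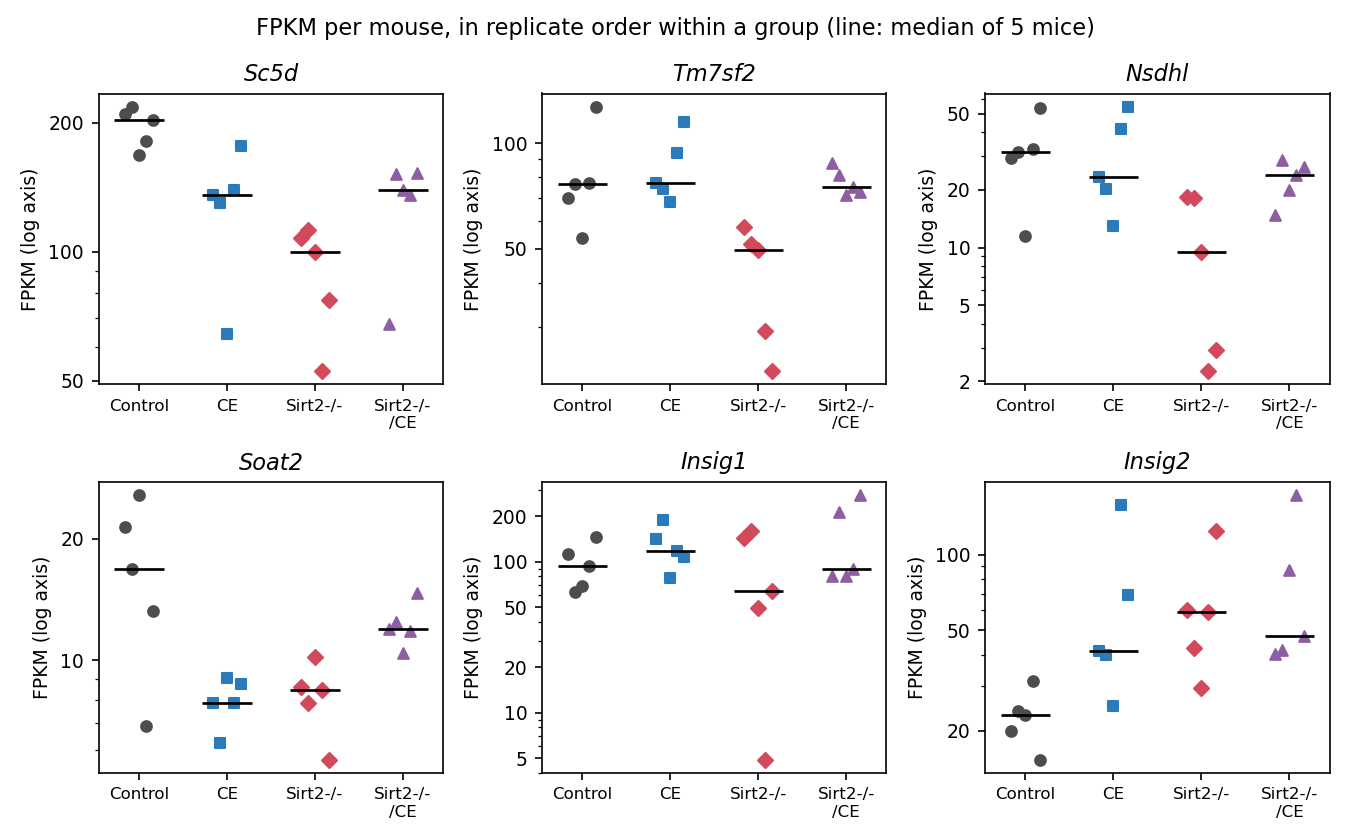
FPKM of 6 genes (vertical axis, log scale) in each of 20 mice (points), by group along the horizontal axis, with lines at the group median. Every Sirt2-/- point of Sc5d lies below every Control point, and in Insig1 the point of Sirt2-/- replicate 14 (4.89 FPKM) lies below all others.

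Of the 4 genes that control SREBP2, none was called by edgeR in any comparison, and DESeq2 and limma voom called Insig2 in CE against Control (1.2% and 3.46% of all genes). In Sirt2-/- against Control 2 were lower and 2 higher, 1 of each at an unadjusted p under 0.05 (14.9% of all genes, 6.78% lower), and in Sirt2-/-/CE against Sirt2-/- all 4 were higher, none at an unadjusted p under 0.05. Insig2, one of the 2 proteins that retain the SCAP complex, had 19.9, 23.9, 23.1, 31.5 and 15.4 FPKM in Control and 41.3, 39.8, 25.0, 157 and 69.01 FPKM in CE. It had 60.4, 42.8, 29.6, 59.2 and 124 FPKM in Sirt2-/- and 40.3, 41.6, 86.8, 172 and 47.6 FPKM in Sirt2-/-/CE. Only CE replicate 8 and Sirt2-/- replicate 13 were within the Control range among the other 15 mice. The 3 highest values belonged to CE replicate 9, Sirt2-/- replicate 15 and Sirt2-/-/CE replicate 19, which are 3 of the 4 mice with a clock score below -4. For Insig2 the log2 fold change was 1.46 in CE (SE 0.44, edgeR adjusted p = 0.226) and 1.25 in Sirt2-/- (SE 0.44, edgeR adjusted p = 0.17), both against the same Control mice. With the clock score as a covariate these were 0.65 in CE and 0.30 in Sirt2-/-, where the adjusted p was 0.945, and over the alternatives the adjusted p was 0.0421 (DESeq2) to 0.449 in CE and 0.0622 to 0.945 in Sirt2-/-. Insig1, the other retention protein and itself a target of SREBP2, is given by mouse after its values were seen. It had 112, 62.98, 69.4, 93.5 and 145 FPKM in Control, 141, 188, 77.9, 117 and 108 in CE, 143, 160.5, 49.5, 4.89 and 63.99 in Sirt2-/- and 80.6, 214, 80.5, 89.5 and 276 in Sirt2-/-/CE. The 4.89 FPKM of Sirt2-/- replicate 14 was the lowest value, and that mouse was also the lowest of all mice for 12 of the 18 enzymes. Scap, the escort of SREBP2, had 28.9, 30.5, 26.9, 21.6 and 25.8 FPKM in Control and 22.6, 19.9, 25.5, 17.4 and 20.97 FPKM in Sirt2-/-. Its values were 20.2, 18.7, 19.6, 28.9 and 27.9 FPKM in CE and 14.3, 19.9, 27.7, 31.6 and 17.6 FPKM in Sirt2-/-/CE. The groups overlapped, and the log2 value of Sirt2-/- minus Control was -0.47 (SE 0.18, edgeR adjusted p = 0.212). Srebf2, which encodes SREBP2, had 8.75 ± 1.21 FPKM in Control, 11.3 ± 2.17 in CE, 10.2 ± 2.92 in Sirt2-/- and 10.8 ± 2.37 in Sirt2-/-/CE (SD, n = 5), and Sirt2-/- differed from Control by a log2 value of 0.08 (SE 0.18, edgeR adjusted p = 0.888). The table holds transcript levels, so cleavage of the protein is not measured.

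Stard4, a soluble sterol carrier whose gene is a target of SREBP2, had 37.6, 34.6, 17.6, 25.9 and 25.8 FPKM in Control and 20.2, 23.3, 19.4, 4.89 and 9.69 FPKM in Sirt2-/-. It had 19.4, 17.6, 14.2, 20.8 and 24.8 FPKM in CE and 8.99, 22.98, 21.4, 18.4 and 21.4 FPKM in Sirt2-/-/CE. Sirt2-/- replicates 14 and 15 and Sirt2-/-/CE replicate 16 had the 3 lowest values, and Control replicates 1 and 2 the 2 highest. In Sirt2-/- against Control the log2 fold change was -1.0 (SE 0.32, edgeR adjusted p = 0.133). DESeq2 and limma voom called it, with a lowest adjusted p of 0.032 (limma voom), and without the 4 mice of low clock score the log2 fold change was -0.54.

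Among the 6 genes of LXR and its targets none was called in any comparison by edgeR, and in Sirt2-/- against Control 2 were at an unadjusted p under 0.05 (14.9% of all genes) and limma voom called 1, Abcg8 (5.8% of all genes). Abcg5, a subunit of the transporter that moves sterols into bile, had 48.6, 44.4, 94.4, 23.7 and 34.2 FPKM in Control and 32.4, 23.1, 44.99, 32.2 and 26.5 FPKM in Sirt2-/-. It had 30.6, 23.4, 30.9, 23.1 and 29.4 FPKM in CE and 20.1, 30.4, 34.97, 39.3 and 44.2 FPKM in Sirt2-/-/CE. Control replicate 3, at 94.4 FPKM, was far above the other mice, and the remaining Control mice overlapped with all groups. Against Control, the log2 fold change of Abcg5 was -0.83 in CE (SE 0.29, edgeR adjusted p = 0.295) and -0.78 in Sirt2-/- (SE 0.29, edgeR adjusted p = 0.208). Without Control replicate 3 these were -0.42 and -0.37. Abcg8, its partner, is added after its values were seen and had 38.3, 36.4, 64.8, 19.9 and 27.04 FPKM in Control, 18.8, 16.6, 22.2, 19.5 and 23.4 in CE, 22.6, 14.8, 40.3, 19.01 and 18.04 in Sirt2-/- and 7.78, 16.8, 30.7, 32.01 and 19.6 in Sirt2-/-/CE. Control replicate 3 was again the highest, at 64.8 FPKM, and without it the log2 fold change of Abcg8 moved from -0.84 to -0.53 in CE and from -0.80 to -0.49 in Sirt2-/-. Mylip, the ubiquitin ligase that lowers lipoprotein receptors, had 3.45, 2.41, 2.56, 1.14 and 3.56 FPKM in Control and 6.47, 4.901, 1.89, 3.21 and 3.69 FPKM in Sirt2-/-. It had 1.97, 1.22, 0.916, 3.23 and 1.77 FPKM in CE and 2.82, 5.35, 3.54, 3.56 and 2.59 FPKM in Sirt2-/-/CE. Mylip had the lowest mean level of the 30 genes, and its groups overlapped. Over both treatments the knockout differed by a log2 fold change of 0.69 (SE 0.23, edgeR adjusted p = 0.206). The receptors Nr1h2 and Nr1h3 and the exporter Abca1 had log2 fold changes of 0.11, 0.14 and -0.01 in Sirt2-/- against Control. Nr1h3 stood at 45.4 ± 4.52 FPKM in Control and 55.4 ± 7.03 FPKM in Sirt2-/-, Nr1h2 at 16.2 ± 2.47 and 19.4 ± 5.21, and Abca1 at 13.7 ± 4.32 and 15.1 ± 3.12 (SD, n = 5). The FPKM scale lay higher in Sirt2-/-, with a median log2 difference from Control of 0.12 over all genes, against 0.02 in the edgeR fit. Small differences, such as that of Abca1, can therefore differ in sign between the scales.

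Soat2, the liver enzyme that turns cholesterol into esters, lies on chromosome 15 (102150526 to 102163469, forward strand). It had 21.4, 16.9, 25.6, 6.901 and 13.2 FPKM in Control and 8.58, 7.86, 10.2, 8.45 and 5.68 FPKM in Sirt2-/-. It had 7.86, 6.23, 9.06, 7.86 and 8.74 FPKM in CE and 11.96, 12.4, 10.4, 11.8 and 14.7 FPKM in Sirt2-/-/CE. All Control mice but replicate 4 were above every CE and Sirt2-/- mouse, and the Sirt2-/-/CE mice were above every CE and Sirt2-/- mouse in FPKM. The log2 fold change in Sirt2-/- against Control was -1.18 (SE 0.25, edgeR adjusted p = 0.0405). Over 30 alternatives Soat2 was called in 18, with adjusted p-values from 0.00144 (DESeq2) to 0.379 (without the 4 mice of low clock score). In CE against Control it was -1.05 (SE 0.25, edgeR adjusted p = 0.166).

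**Figure D3:**
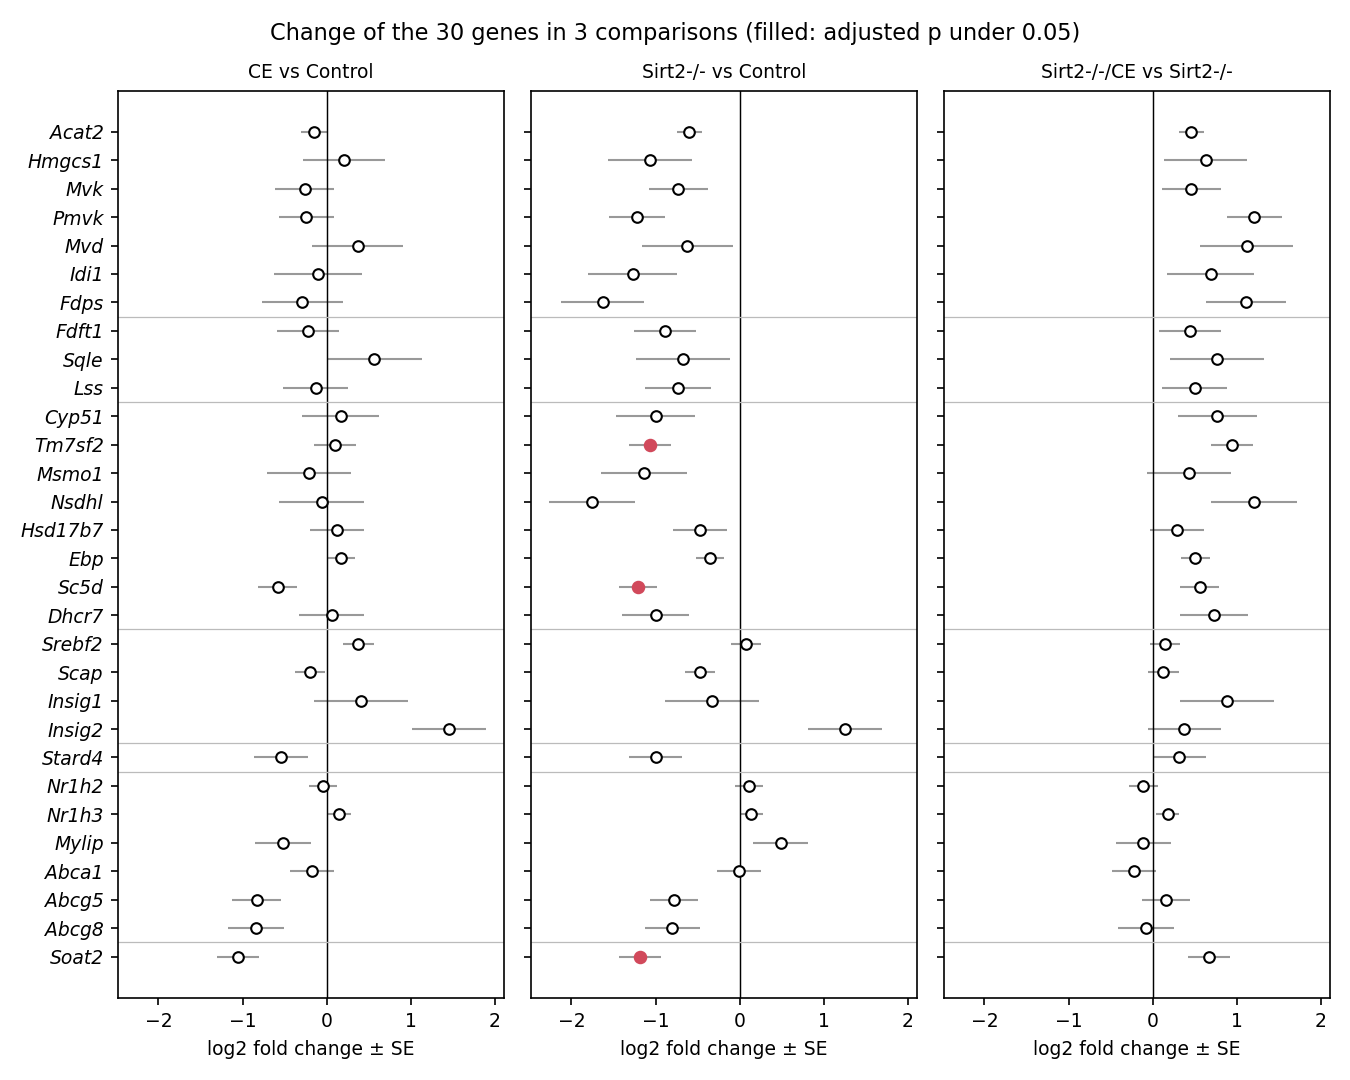
Log2 fold change of each of the 30 genes (points, with bars of 1 SE) in 3 comparisons, with genes by role along the vertical axis, and filled points where the edgeR adjusted p was under 0.05. The 18 enzymes lie on both sides of 0 in CE against Control, below 0 in Sirt2-/- against Control and above 0 in Sirt2-/-/CE against Sirt2-/-, and the filled points are Tm7sf2, Sc5d and Soat2 in Sirt2-/- against Control.

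The comparison of CE with Control asks what cold does to the pathway in wild-type mice. Of the 18 enzymes, 10 were lower and 8 higher in CE than in Control, with a median log2 fold change of -0.08, against -0.01 over all genes. None of the 30 genes was called by edgeR (0.0064% of all genes), and 5 were at an unadjusted p under 0.05 (10.7% of all genes), namely Soat2, Insig2, Abcg5, Abcg8 and Sc5d, which became 3 genes without Control replicate 3 (7.08% of all genes) in a range of 3 to 7. DESeq2 called 2, Insig2 and Soat2 (1.2% of all genes), and limma voom called 3, with Sc5d added (3.46%). None of the 30 was without overlap between the groups in CPM (3.04% of all genes) or in FPKM (2.62%). Leaving out Control replicate 5 gave 3 of 18 enzymes lower and leaving out Control replicate 3 gave 15 of 18, and leaving out CE replicate 9 or 10 gave 13 or 14 and CE replicate 6, 7 or 8 gave 8, so the split moved with single mice of both groups. With the clock score as a covariate 2 of 18 were lower.

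The comparison of Sirt2-/-/CE with Sirt2-/- asks what cold does in knockout mice. All 18 enzymes were higher in Sirt2-/-/CE than in Sirt2-/-, with a median log2 fold change of 0.66 against 0.01 over all genes, and these Sirt2-/- mice are the ones compared with Control above. None of the 30 was called by edgeR, nor was any gene (0% of all genes). At an unadjusted p under 0.05, 8 of the 30 differed (7.25% of all genes), all of them higher (3.96% of all genes). Leaving out 1 mouse gave 4 to 12 of the 30, with 5 without Sirt2-/- replicate 14 (7.3% of all genes), 4 without Sirt2-/- replicate 15 (3.83%) and 5 without Sirt2-/-/CE replicate 17 (7.97%), against 7.25% with all mice. With all mice they were Tm7sf2 with 0.95, Pmvk with 1.21, Acat2 with 0.46, Ebp with 0.51, Soat2 with 0.67, Sc5d with 0.56, Nsdhl with 1.21 and Fdps with 1.11 on the log2 scale. In CPM, Acat2 and Tm7sf2 were higher in every Sirt2-/-/CE mouse than in any Sirt2-/- mouse, 2 of the 30 (0.435% of all genes), and in FPKM Tm7sf2 and Soat2 were (0.378% of all genes). DESeq2 (0.0448% of all genes) and limma voom (0%) also called 0 of the 30. Without the 4 mice of low clock score, 4 of 18 enzymes were lower and 3 of the 30 genes were at an unadjusted p under 0.05 (5.34% of all genes).

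The knockout was also compared among cold-exposed mice. Of the 18 enzymes, 15 were lower and 3 higher in Sirt2-/-/CE than in CE, with a median log2 fold change of -0.23 against 0.02 over all genes. None of the 30 was called by edgeR, DESeq2 or limma voom (0.0128%, 0.199% and 0.0128% of all genes), and 2 were at an unadjusted p under 0.05 (6.09% of all genes), Mylip with 0.89 and Soat2 with 0.55. That count was 0 to 2 on leaving out 1 mouse, and it was 0 in the absence of Sirt2-/-/CE replicate 17 (6.52% of all genes) and 1 in that of any of CE replicates 6, 7, 9 and 10 and Sirt2-/-/CE replicates 16, 19 and 20 (4.91% to 7.13% of all genes). No gene of the 30 was without overlap in CPM (1.22% of all genes), and in FPKM Soat2 was higher in every Sirt2-/-/CE mouse (1.56% of all genes). The difference between the effect of cold in knockout and in wild-type mice, the interaction, was positive for all 18 enzymes. Of all genes, 49.8% were negative. The interaction reuses the Sirt2-/- and Control mice of the comparisons above, so it is not a separate result. None of the 30 was called by edgeR (0% of all genes), and 6 were at an unadjusted p under 0.05 (8.34% of all genes). Soat2 had the largest, 1.72 on the log2 scale (SE 0.36, edgeR adjusted p = 0.208), and was called by DESeq2 (0.263% of all genes), whose adjusted p was 0.00706 in a range of up to 0.767 over 29 alternatives. Limma voom called none of the 30 (0% of all genes). The others were Sc5d with 1.14, Pmvk with 1.45, Acat2 with 0.61, Tm7sf2 with 0.85 and Abcg5 with 0.99. Averaged over both treatments, the knockout gave 0 of 30 called by edgeR (0.186% of all genes), 3 by DESeq2, namely Tm7sf2, Nsdhl and Sc5d (2.03%), and 1 by limma voom, Sc5d (1.68%). All 18 enzymes were lower (46.4% of all genes), and 16 of the 30 genes were at an unadjusted p under 0.05 (13.8% of all genes). This count was 8 to 19 on leaving out 1 mouse, with 8 without Control replicate 5 (14% of all genes), 9 without CE replicate 9 (14%) and 10 without CE replicate 10 (12.7%). With the clock score as a covariate, the edgeR adjusted p of Tm7sf2, Nsdhl and Sc5d was 0.479, 0.504 and 0.389. In that setting 7.86% of all genes were at an unadjusted p under 0.05. Averaged over both genotypes, cold gave 17 enzymes higher and 1 lower (48.7% of all genes lower). It gave 0 of 30 called by edgeR (0% of all genes), DESeq2 (0.487%) or limma voom (0.307%). At an unadjusted p under 0.05 were 4 of the 30 (9.48% of all genes). That number became 3 to 8 on leaving out 1 mouse, with 7 without Control replicate 5 (9.07% of all genes), 7 without Sirt2-/-/CE replicate 18 (9.63%) and 8 without Sirt2-/- replicate 11 (9.89%). Without the 4 mice of low clock score, 7 of 18 enzymes were lower.

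Markers of other cell types and of liver state differed between groups, and their part in the results was not tested beyond the clock alternatives given above. The 5 endothelial markers summed to 28.4 to 129 CPM in CE and 135 to 222 CPM in Sirt2-/-/CE, without overlap. All 5 were at an unadjusted p under 0.05 in that comparison (6.09% of all genes), with log2 fold changes of 1.02 to 1.70. The 5 markers of Kupffer cells (liver macrophages) that passed the filter summed to 80.3 to 308 CPM in CE and 217 to 364 CPM in Sirt2-/-/CE, with 3 of 5 higher at an unadjusted p under 0.05. Over both treatments the knockout had 5 of 5 endothelial and 4 of 5 Kupffer cell markers higher at an unadjusted p under 0.05 (13.8% of all genes differed). Of either, 0 were called by edgeR (0.186% of all genes). In Sirt2-/- against Control all 5 of each were higher, none at an unadjusted p under 0.05 (14.9% of all genes). Cela1, the 1 pancreas marker that passed the filter, had log2 values in the same directions as the enzymes, -1.15 in Sirt2-/- against Control (edgeR adjusted p = 0.0584), 1.11 in Sirt2-/-/CE against Sirt2-/- (edgeR adjusted p = 0.503) and 1.25 in the interaction (edgeR adjusted p = 0.43), and summed to 5.21 to 14.8 CPM in Control and 4.83 to 5.596 CPM in Sirt2-/-. The 3 other pancreas markers, Prss2, Cpa1 and Pnlip, had no counts in any CE or Sirt2-/- mouse, though each had some in Control. The 6 hepatocyte markers had a median sum of 109500 CPM in Control and 90680 CPM in Sirt2-/-, and 4 of the 6 were higher and 2 lower in Sirt2-/-, with a median log2 fold change of 0.02 and the lowest at -0.66 for Apoa1, an apolipoprotein (edgeR adjusted p = 0.16). The summed CPM of 7 genes of feeding and lipogenesis was 3448 to 11260 in Control, 600.9 to 2121 in Sirt2-/-, 1579 to 7357 in CE and 1971 to 5946 in Sirt2-/-/CE. In this sum, which genes of high level dominate, every Sirt2-/- mouse was below every Control mouse. Gene by gene, all 7 were lower in Sirt2-/- (48.2% of all genes), with a median log2 fold change of -1.12 and the lowest at -2.99 for Scd1. Of the 7, 4 were at an unadjusted p under 0.05 (14.9%). All 7 were higher in Sirt2-/-/CE than in Sirt2-/-, 3 at an unadjusted p under 0.05 (7.25%), and all 7 were positive in the interaction. The 7 fasting genes summed to 1715 to 4868 CPM in Control (median 3209) and 295.9 to 5266 CPM in Sirt2-/- (median 3161), so the lowest Sirt2-/- mouse was below every Control mouse. Of the 5 Sirt2-/- mice, the 2 with a clock score below -4 (replicates 14 and 15) also had the 2 lowest enzyme medians, at -1.95 and -1.44. The CE and Sirt2-/-/CE mice of low clock score (replicates 9 and 19) had enzyme medians of 0.73 and 0.06, within the range of the other mice of their groups.

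**Figure D4:**
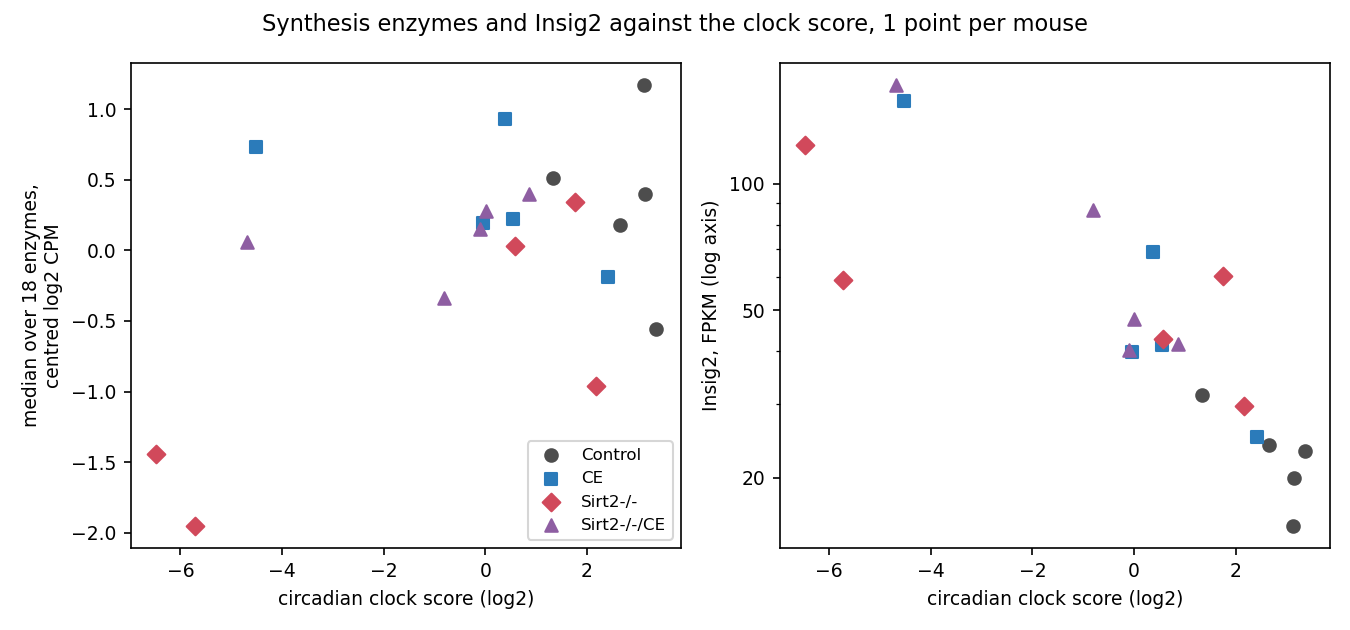
Median of the 18 enzymes in centred log2 CPM and FPKM of Insig2 (vertical axes) against the clock score (horizontal axis), with each point 1 mouse of 1 of 4 groups. Of the 4 mice below a score of -4, Sirt2-/- replicates 14 and 15 have the lowest enzyme medians (-1.95 and -1.44) and the others do not, and Insig2 is highest in CE replicate 9, Sirt2-/- replicate 15 and Sirt2-/-/CE replicate 19.

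Genes next to the pathway were read from 4 lists in Sirt2-/- against Control, where 0.89% of all genes were called, 14.9% were at an unadjusted p under 0.05 and 48.2% were lower. None of the calls below was made with the clock score as a covariate or without the 4 mice of low clock score, where edgeR called no gene at all. Of 9 genes of SREBP and its processing or of sterol-regulated degradation, all were lower, but with a median log2 fold change of only -0.11 and values from -1.12 to -0.01. Of the 9, 0 were called by edgeR and 2 were at an unadjusted p under 0.05. These were Srebf1 (-1.12), which encodes SREBP1, and Erlin1 (-0.46). Of 7 partners and other targets of LXR, 6 were lower and 2 fell past the threshold. Scd1, the stearoyl-CoA desaturase, fell by 2.99 on the log2 scale (SE 0.58, edgeR adjusted p = 0.0311), and Lpcat3, which remodels phospholipids, fell by 0.91 (SE 0.18, edgeR adjusted p = 0.034). Of 13 genes of cholesterol transport and ester handling, 7 were lower and 6 higher, 0 were called by edgeR and 3 were at an unadjusted p under 0.05, namely Osbp (0.53), Osbpl2 (-0.27) and Stard5 (-0.35). In the isoprenoid branch, which draws on the same farnesyl diphosphate, 3 of 10 genes were lower and 7 higher, and 1 was called. Dhdds, a subunit of the enzyme that makes dolichol precursors, rose by 0.67 on the log2 scale (SE 0.16, edgeR adjusted p = 0.0454), and Nus1, its partner, differed by 0.35 (edgeR adjusted p = 0.18).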

How the data were processed

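Poly(A)-selected RNA of 20 mouse livers was sequenced by the authors, who deposited 1 table with raw counts and FPKM values for every gene and mouse. Per the submitters' processing notes the genome build was mm10. The aligner, the counter, the annotation and the use of strand are not given in the sources used here. The 9 lines that hold no gene were left out, and 45306 genes remained, of which 1967 were predicted by the authors. Labels name each mouse and give no batch, so a batch or cage that coincided with a group could not be told apart from it. The p-values rest on the spread between mice within groups, estimated in 1 fit over all 4 groups of 5 mice.

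Counts were tested here with edgeR 4.0.16 in R 4.3.3 (TMM scaling, filterByExpr with a minimum count of 10, 15616 genes kept, quasi-likelihood test, Benjamini-Hochberg adjustment over all genes, threshold 0.05). The edgeR, DESeq2 and voom fits were tested on simulated data. DESeq2 1.42.0, limma 3.58.1 (voom with sample quality weights, and log2 FPKM with a pseudocount of 1 and a minimum mean FPKM of 1), other scaling, no filter, a fit of the compared groups only, the clock score as a covariate and leaving out each mouse were alternatives. Leaving out the mice of low clock score was added after seeing the data. Log2 CPM used a prior count of 2. Positions are from the GENCODE annotation of GRCm38, near-identical genes from BLAST+ 2.17.0 (at least 95% identity over 150 bases), and promoter windows from RefSeq (GRCm38.p6). Figures were drawn with matplotlib 3.10.9.

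The members and lists were chosen with earlier results of these data known. Values by mouse are given for genes past the threshold in any comparison and, in each role with fewer than 2 such genes, for the 2 with the lowest p; others are given by group. Some genes of the pathway are not reported here.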

Additional observations from a re-analysis of the deposited data

Results flagged for a closer look

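In the 30 genes and 4 groups of 5 mice, 120 sets of values were screened for a mouse far from the other 4 of its group, with a gap over the whole range, in log2 CPM scaled by edgeR's TMM method, above Dixon's critical value of 0.71. Chance gives about 1 in 20 such sets, and 3 sets of the 120 passed. That is fewer than chance would give, so they are listed as a description only. All 3 belonged to Sirt2-/-/CE replicate 16. Its Sc5d had a log2 CPM of 7.43, against 8.22 to 8.48 in the other 4 mice (ratio 0.75), and 67.96 FPKM, against 135.8 to 152.9 FPKM. Its Stard4 had a log2 CPM of 5.71, against 6.57 to 6.87 (ratio 0.742), and 8.987 FPKM, against 18.45 to 22.98 FPKM. Its Tm7sf2 had a log2 CPM of 7.18, the highest, against 6.67 to 6.81 (ratio 0.731), and 87.51 FPKM, against 71.09 to 81.37 FPKM. On the FPKM themselves the ratio was 0.798 for Sc5d, 0.676 for Stard4 and 0.374 for Tm7sf2, so in FPKM Sc5d alone of these 3 passed the critical value. The clock score of that mouse was -0.10 and its enzymes summed to 764 FPKM, inside the range of its group.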

How the results depend on the processing

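No paired analysis was possible because replicate numbers run from 1 to 20 and no 2 groups share one. The alternatives were also read for 63 log2 fold changes of the 30 genes and Sirt2 with an unadjusted p under 0.05 in the main fit. Most of these were not called there. Over up to 30 alternative settings none turned its direction, 1795 values kept their side of the threshold, 42 lost a call and 26 gained one. Most of the 1795 were thus uncalled values that stayed uncalled. The calls in Sirt2-/- against Control were less stable, with Sc5d called in 24, Soat2 in 18 and Tm7sf2 in 9 of 30 alternatives. The median of the 30 genes in CE against Control, where none was called, was -0.12 and turned to 0.22 with the clock score as a covariate. In Sirt2-/- against Control, the main count of 3 called genes (0.89% of all genes) was 8 with DESeq2 (3.89%), 6 with limma voom (5.8%, with 17 of 18 enzymes lower), 6 with log2 FPKM (4.49%), 1 without the filter (0.135%), 1 in a fit of the compared groups only (0.195%), 0 with the clock score as a covariate and 0 without the mice of low clock score (0% of all genes in both). In CE against Control DESeq2 called 2 (1.2%) and limma voom 3 (3.46%), in the interaction DESeq2 called 1 (0.263%), and for the knockout over both treatments DESeq2 called 3 (2.03%) and limma voom 1 (1.68%), where edgeR called 0. The interaction median of the 30 genes was 0.63 and 0.19 with limma voom. Leaving out 1 mouse gave 0 to 5 called in Sirt2-/- against Control (median -1.01 to -0.57), 0 without Control replicate 1 or 2 or Sirt2-/- replicate 14 or 15 (0.0315% to 0.0822% of all genes), 1 without Control replicate 3 or 5, CE replicate 7 or Sirt2-/- replicate 12 (0.126% to 0.353%), and 5 without Sirt2-/- replicate 11 (0.808%). It gave 0 to 1 in CE against Control (median -0.24 to 0.13) and 0 to 1 in the interaction (median 0.35 to 0.93), the 1 being Soat2 without Control replicate 4 (0.429% and 0.0126% of all genes). The count stayed at 0 in Sirt2-/-/CE against Sirt2-/- (median 0.39 to 0.69), in Sirt2-/-/CE against CE (median -0.18 to -0.00), for the knockout over both treatments (median -0.50 to -0.31) and for cold over both genotypes (median 0.14 to 0.33). Scaling by library size alone moved the median of all genes in Sirt2-/- against Control to 0.158. The causes were not tested. With 5 mice per group, and a time of day that is not given in the sources used here, a p that misses the threshold does not show that levels were alike.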
